A study of Mus musculus with 22 samples.

Results

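The 8 MHC class II genes *Cd74*, *H2-Aa*, *H2-Ab1*, *H2-Eb1*, *H2-DMa*, *H2-DMb1*, *H2-Oa* and *Ciita* were followed, chosen by name among 33984 mouse genes with counts, in adult choroid plexus (ChP), the epithelial tissue of the brain ventricles that makes cerebrospinal fluid. RNA was sequenced from 14 pools of mice, with 2 pools (A and B) in each of 7 groups. In the conditional model (strain label S129), *Otx2* lox/lox mice received Cre-Tat, a recombinase protein that enters cells, or vehicle into the lateral ventricles, and ChP was taken separately from the lateral ventricles (LV) and the fourth ventricle (4V). In the constitutive model (strain label B6D2), 4V ChP came from wildtype, *Otx2*+/- (named *Otx2*+/GFP in the study) and *Otx2*+/AA mice, and the AA allele is not described further in the labels.

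All conditional groups carry the lox alleles, so Cre-Tat and vehicle pools differ in the injected protein, and loss of *Otx2* and exposure to Cre-Tat cannot be told apart in them. Cre-Tat mice had been screened for low *Otx2* by qPCR before they were pooled, and each pool mixes several mice. The constitutive alleles act in the whole animal and throughout life. The labels call both pools of a group biological replicates, and p-values measure the spread between these pools only.

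MHC class II molecules display peptides taken up from outside the cell to CD4 T cells. An alpha and a beta chain (H2-Aa with H2-Ab1, and H2-Eb1 with the E alpha chain) are held by the invariant chain, CD74, on the way to endosomes. There H2-DM, made from H2-DMa and H2-DMb1, exchanges the invariant chain fragment for peptide, and H2-O, which includes H2-Oa, restrains H2-DM. CIITA is the coactivator that switches these genes on, through a complex held at the X and Y boxes of their promoters. Class II is constitutive in dendritic cells, B cells and many macrophages, and interferon gamma can induce it in other cells.

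The promoter letters are shown for the 4 members in which a core of these boxes was found, with the X box core (AACNNATGA) and the Y box core (TGATTGG) in capitals. Each line gives the 120 bases before the annotated start, 5′ to 3′ on the gene's strand, from RefSeq on GRCm38.p6. *H2-Aa* is at chr17:34287824-34287943 on the minus strand, and on the plus strand *H2-Eb1* is at chr17:34305747-34305866, *H2-DMb1* at chr17:34153071-34153190 and *H2-Oa* at chr17:34092259-34092378.
H2-Aa: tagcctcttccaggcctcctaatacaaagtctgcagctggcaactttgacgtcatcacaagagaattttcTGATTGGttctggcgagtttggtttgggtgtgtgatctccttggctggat
H2-Eb1: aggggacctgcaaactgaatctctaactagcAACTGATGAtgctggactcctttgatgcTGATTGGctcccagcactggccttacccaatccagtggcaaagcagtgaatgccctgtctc
H2-DMb1: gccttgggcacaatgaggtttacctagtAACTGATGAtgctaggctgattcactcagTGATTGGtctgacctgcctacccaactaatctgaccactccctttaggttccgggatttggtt
H2-Oa: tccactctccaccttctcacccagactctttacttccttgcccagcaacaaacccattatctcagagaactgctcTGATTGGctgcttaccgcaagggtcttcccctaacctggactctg

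On both strands of windows from 250 bases before to 50 bases after the start, the Y box core was present in 7.82% of 32851 mouse promoters, the X box core in 2.85% and both in 0.307%. The cores do not overlap each other. *H2-Eb1* holds the X box core at -89 and the Y box core at -61 relative to its start, with 19 bases between them. *H2-DMb1* holds them at -92 and -63, with 20 bases between them. *H2-Aa* and *H2-Oa* hold the Y box core alone by exact match, at -50 and -45. Only these exact letters were searched, so a variant X or Y box would be missed, and absence of a box is not shown. Both windows annotated for *H2-DMa* hold neither core. It was not checked whether the windows of *H2-DMa*, *H2-DMb1* and *H2-Oa* lie at the start of the transcript counted. The printed bases of *H2-DMb1* and *H2-Oa* reach into the gene as annotated for counting, which starts at chr17:34153072 and chr17:34092340. *H2-Eb1* and *H2-DMb1* thus carry the same pair of cores at nearly the same place. Whether the cores bear on the Cre-Tat changes given below was not tested.

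The levels of the 8 genes fell into 3 tiers in every group (CPM, counts scaled to the TMM-adjusted library total, divided by transcript length in kb). *H2-Ab1* had the highest mean in all 7 groups, from 26.8 CPM per kb in vehicle 4V to 103 in Cre-Tat LV. This order differed with counts summed over transcripts, where *Cd74* was highest in all 7 groups (130.8 in Cre-Tat LV, beside 76.8 for *H2-Ab1*). The sums appear to count shared reads once for each transcript. In Cre-Tat LV pool A the *Cd74* transcripts had 3283, 3271 and 3100 counts, while *H2-Eb1* has 1 transcript. The sums thus do not settle the order. By 1 transcript a gene, *Cd74*, *H2-Aa* and *H2-Eb1* followed *H2-Ab1*. The lowest mean among these 4 genes was 21.5 CPM per kb, for *H2-Eb1* in wildtype 4V. In the conditional groups the pools of neighbouring genes in this tier overlapped, except that *Cd74* lay below *H2-Aa* in vehicle 4V. In the constitutive groups *H2-Ab1* and *Cd74* overlapped each other and lay above *H2-Aa* and *H2-Eb1*, which also overlapped each other.

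*H2-DMa* and *H2-DMb1* formed the middle tier, at group means of 1.27 to 6.08 CPM per kb. *H2-DMb1* was above *H2-DMa* in both vehicle groups and in Cre-Tat LV, below it in wildtype and *Otx2*+/-, and overlapped with it in Cre-Tat 4V and *Otx2*+/AA. With counts summed over transcripts it was below *H2-DMa* in Cre-Tat LV (3.61 and 3.84 CPM per kb). Such sums can count a read shared by transcripts more than once. *H2-Oa* and *Ciita* were lowest, and no group mean of either exceeded 1.54 CPM per kb. Among the members, *H2-DMb1* alone had its highest group mean in vehicle LV, and the other 7 had it in Cre-Tat LV.

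**Figure D1:**
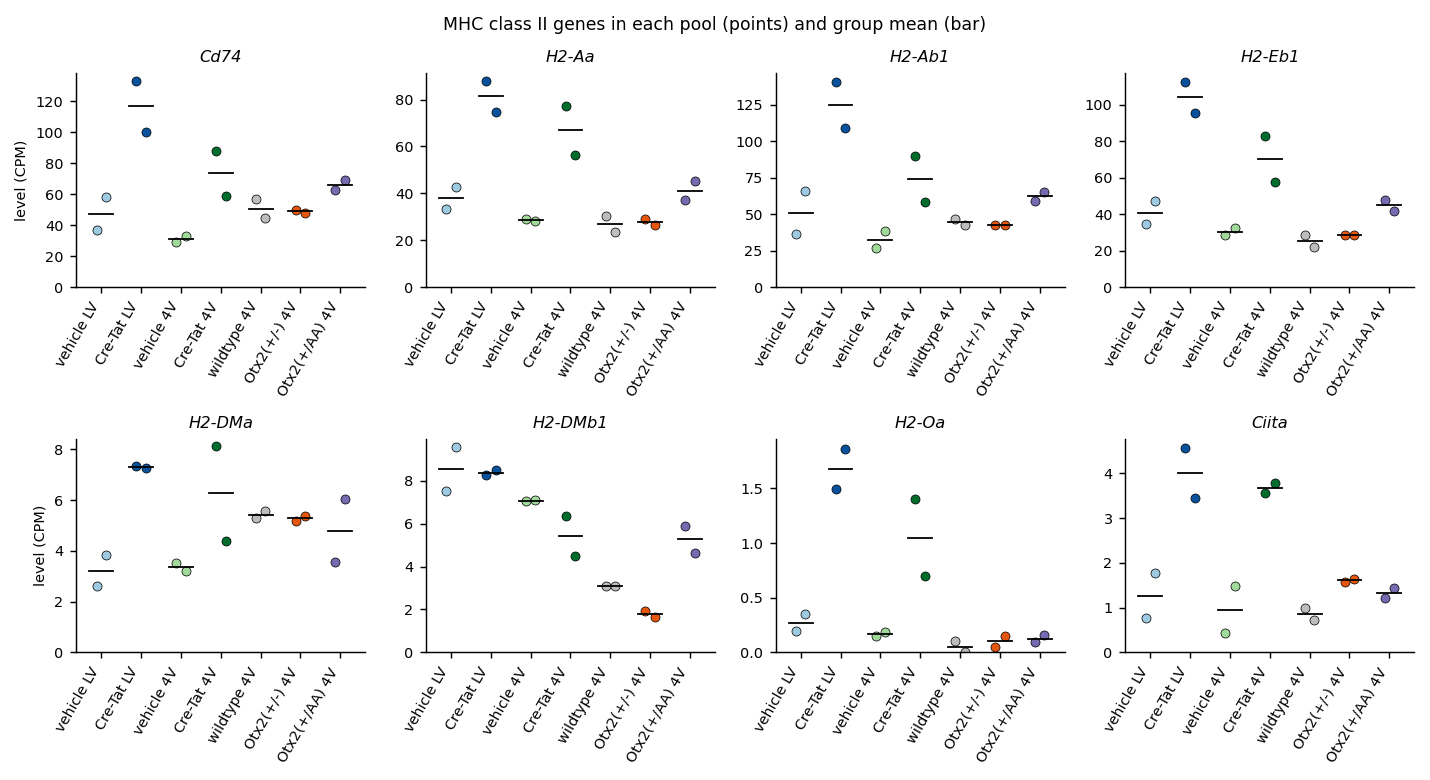
Level of each of the 8 MHC class II genes (CPM, TMM-scaled over 14 pools, axes from 0) in each pool (points, A left and B right) with the group mean (bar, n = 2). Both Cre-Tat pools lie above both vehicle pools of the same ventricle for every gene but H2-DMb1, and the constitutive pools of Cd74 lie between 44.5 and 69.2 CPM. The share of all genes whose pools lie apart in this way was not computed.

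In LV ChP, 7 of the 8 members rose in the pools labelled Cre-Tat, where 2.21% of the 15002 genes tested were called higher and 1.03% lower (edgeR quasi-likelihood test, Benjamini-Hochberg adjusted p under 0.05). *H2-DMb1* was the exception. The median log2 fold change was 1.32 over the 8 members, against 0.00442 over all genes tested. No permutation of 2 pools against 2 can give a p below 0.333, so the tests rest on the spread shared across genes. For the same reason, pools that do not overlap are weak evidence by themselves. The share of all genes without overlap was not computed.

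*Cd74*, the invariant chain, had 36.7 and 58.1 CPM in the vehicle LV pools and 133 and 100.2 CPM in the Cre-Tat LV pools. It rose by 1.32 ± 0.21 on the log2 scale (SE, n = 2 pools a group, edgeR adjusted p = 0.00357). *H2-Aa*, the A alpha chain, had 33.2 and 42.5 CPM with vehicle and 88.0 and 74.8 CPM with Cre-Tat. All Cre-Tat pools of both genes lay above all vehicle pools, and *H2-Aa* rose by 1.13 ± 0.17 (adjusted p = 0.00255, edgeR).

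*H2-Ab1*, the A beta chain, had 36.3 and 66.0 CPM with vehicle and 141 and 109 CPM with Cre-Tat. *H2-Eb1*, the E beta chain, had 34.6 and 47.0 CPM with vehicle and 113 and 95.5 CPM with Cre-Tat. In both, the lower Cre-Tat pool was above the higher vehicle pool. The log2 fold changes were 1.31 ± 0.24 for *H2-Ab1* (edgeR adjusted p = 0.00727) and 1.37 ± 0.18 for *H2-Eb1* (edgeR adjusted p = 0.000784).

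The subunits of H2-DM parted. *H2-DMa* had 2.61 and 3.83 CPM with vehicle and 7.36 and 7.27 CPM with Cre-Tat, a rise of 1.21 ± 0.26 (adjusted p = 0.0205, edgeR). *H2-DMb1* had 7.50 and 9.57 CPM with vehicle and 8.25 and 8.50 CPM with Cre-Tat, so its groups overlapped. Its log2 fold change was -0.0040 ± 0.21, with a 95% interval of -0.46 to 0.45.

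*H2-Oa*, the H2-O alpha chain, had 4 and 7 counts in the vehicle LV pools and 37 and 41 counts in the Cre-Tat LV pools. The ratio of the summed counts, scaled to depth, was 6.15, with an exact interval of 3.25 to 12.8 that covers counting error only. The vehicle counts lay below the filter for low counts, so *H2-Oa* entered the LV test through its Cre-Tat pools only. A gene this low in both groups would not have been tested. *Ciita* had 0.775 and 1.76 CPM with vehicle and 4.57 and 3.46 CPM with Cre-Tat. Both rose, by 2.62 ± 0.58 for *H2-Oa* (edgeR adjusted p = 0.0233) and 1.69 ± 0.39 for *Ciita* (edgeR adjusted p = 0.0303).

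These LV calls rest on joining files to pools by library number, since 14 of the 16 files of the conditional model are recorded with another pool. With the files as recorded, 4 members were called in LV, and *H2-DMa* then had a log2 difference of -0.27 and *H2-DMb1* of 0.23. Leaving out vehicle LV pool A or Cre-Tat LV pool A also left 4 members called, as *H2-DMa*, *H2-Oa* and *Ciita* then missed the threshold, and *Ciita* missed it with counts summed over transcripts (edgeR adjusted p = 0.087). *H2-Oa* missed it also without Cre-Tat LV pool B (edgeR adjusted p = 0.108), which left 6 members called.

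In 4V ChP, 6 of the 8 members rose in the pools labelled Cre-Tat, beside 5.7% of the 14550 genes tested that were called higher and 4.98% lower. Again *H2-DMb1* was not among them, and *H2-DMa* missed the threshold. The median log2 fold change was 1.22 over the 8 members and 0.00609 over all genes tested. The ChP of both ventricles was dissected from the injected mice, so the LV and 4V comparisons may share animals.

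*Cd74* had 29.3 and 33.2 CPM in the vehicle 4V pools and 87.9 and 58.8 CPM in the Cre-Tat 4V pools. *H2-Aa* had 29.0 and 28.2 CPM with vehicle and 77.3 and 56.5 CPM with Cre-Tat. In both genes the groups were apart, with Cre-Tat pool A the highest, and the log2 fold changes were 1.24 ± 0.17 for *Cd74* (edgeR adjusted p = 0.000115) and 1.24 ± 0.16 for *H2-Aa* (edgeR adjusted p = 5.36e-05).

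*H2-Ab1* had 26.8 and 38.3 CPM with vehicle and 90.2 and 58.6 CPM with Cre-Tat. *H2-Eb1* had 28.3 and 32.7 CPM with vehicle and 82.9 and 57.5 CPM with Cre-Tat. Neither overlapped between groups. They rose by 1.21 ± 0.19 (edgeR adjusted p = 0.000413) and 1.21 ± 0.17 (edgeR adjusted p = 0.00011) on the log2 scale.

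*H2-DMa* had 3.53 and 3.22 CPM with vehicle and 8.15 and 4.39 CPM with Cre-Tat. The difference was 0.89 ± 0.30 on the log2 scale (edgeR adjusted p = 0.0728), and Cre-Tat pool A was well above Cre-Tat pool B. *H2-DMb1* had 7.06 and 7.09 CPM with vehicle and 6.37 and 4.49 CPM with Cre-Tat, a difference of -0.38 ± 0.24 (edgeR adjusted p = 0.398). Both its Cre-Tat pools lay below both vehicle pools, against the direction of the other 7 members. Without Cre-Tat 4V pool B, *H2-DMa* was called at a log2 fold change of 1.28.

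*H2-Oa* had 2 counts in each vehicle 4V pool and 26 and 14 counts in the Cre-Tat 4V pools, a depth-scaled ratio of 6.34 with an exact counting interval of 2.29 to 24.4. In 4V too it passed the filter for low counts only through its Cre-Tat pools. *Ciita* had 0.441 and 1.47 CPM with vehicle and 3.56 and 3.79 CPM with Cre-Tat. *H2-Oa* rose by 2.62 ± 0.73 (edgeR adjusted p = 0.027) and *Ciita* by 2.01 ± 0.43 (edgeR adjusted p = 0.00456). Without vehicle 4V pool A, neither gene was called, at a log2 difference of 1.34 for *Ciita* and 2.48 for *H2-Oa*, and *H2-Oa* was not called without vehicle pool B (2.77) or Cre-Tat pool A (2.04). DESeq2 gave *H2-Oa* no adjusted p in 4V and called the same other 5 members.

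**Figure D2:**
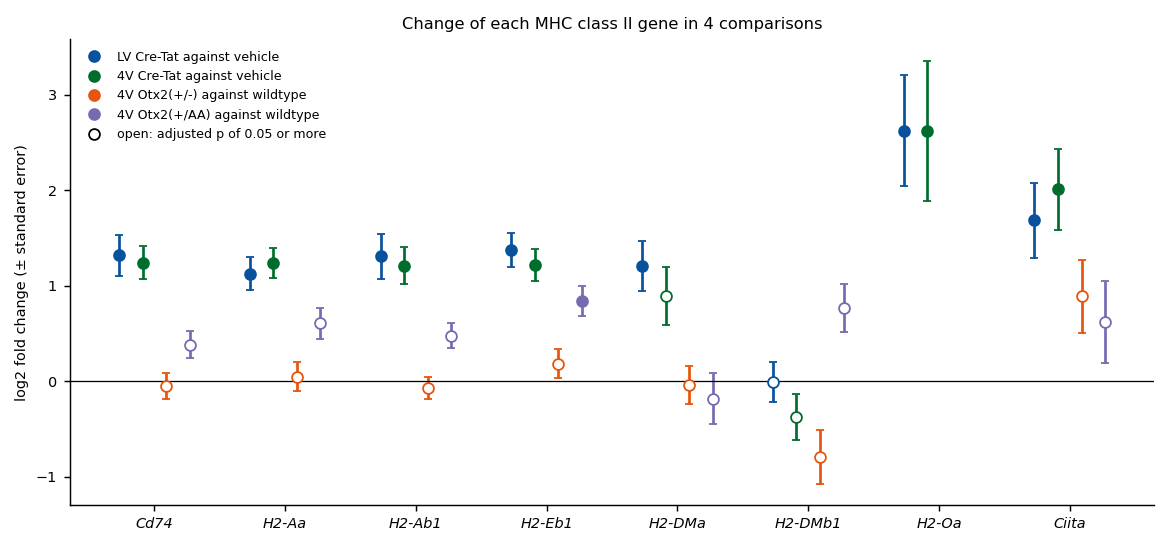
Log2 fold change of each MHC class II gene with its standard error (edgeR, 2 pools a group) in 4 comparisons, with filled points for an adjusted p under 0.05. The Cre-Tat points of Cd74, H2-Aa, H2-Ab1 and H2-Eb1 lie between 1.13 and 1.37, while their Otx2(+/-) points lie between -0.07 and 0.18, and H2-Oa was not tested in the constitutive model.

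The size of the Cre-Tat change was compared between ventricles in one model. This test and the one between vehicle groups below treated LV and 4V pools as independent, although they may share animals. In edgeR's test none of the 8 members passed, 0 had an unadjusted p under 0.05, DESeq2 called 0, and 1 of 15565 genes passed (0.00642%). The differences (LV change minus 4V change) ran from -0.32 for *Ciita* to 0.38 for *H2-DMb1*. For *Cd74* the 95% interval of the difference was -0.59 to 0.75, so a difference of that size is not resolved by these pools.

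Between the vehicle pools of both ventricles, 0 of 7 members tested passed in edgeR's test and 0 in DESeq2's, where 7.44% of 14561 genes passed in edgeR's. *Cd74*, *H2-Aa*, *H2-Ab1* and *H2-Eb1* had an unadjusted p under 0.05 each, with LV above 4V by 0.37 to 0.63 on the log2 scale and edgeR adjusted p from 0.0713 to 0.143. The pools of *H2-Ab1* overlapped, and those of the other 3 genes did not. The call depends on 1 library, since without vehicle LV pool A 4 members were called.

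In *Otx2*+/- 4V ChP, none of the 7 members tested passed against wildtype in edgeR's test or in DESeq2's, where 3.53% of 14573 genes did in edgeR's. *H2-Oa* had 0 to 3 counts in each of these pools and was filtered out. The median log2 fold change of the members tested was -0.038, beside -0.000696 over all genes tested. *Cd74* had 56.6 and 44.5 CPM in wildtype and 49.9 and 47.8 CPM in *Otx2*+/- pools, a log2 difference of -0.05 with a 95% interval of -0.36 to 0.26. *H2-Aa*, *H2-Ab1* and *H2-Eb1* differed by 0.05, -0.07 and 0.18, and the upper bounds of their intervals were at most 0.53.

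The remaining members of the *Otx2*+/- comparison had unadjusted p under 0.05 in 2 cases. *H2-DMb1* had 3.09 CPM in both wildtype pools and 1.93 and 1.64 CPM in *Otx2*+/- pools, a log2 difference of -0.79 ± 0.28 (edgeR adjusted p = 0.184). *Ciita* had 0.994 and 0.731 CPM in wildtype and 1.57 and 1.64 CPM in *Otx2*+/- pools, a difference of 0.89 ± 0.38 (edgeR adjusted p = 0.26). In neither did the pools overlap. *H2-DMa* differed by -0.04, with overlapping pools.

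The 4V change was then compared between models, as the Cre-Tat change minus the *Otx2*+/- change. *Cd74* (difference 1.28 ± 0.25, edgeR adjusted p = 0.0234), *H2-Aa* (1.17 ± 0.24, edgeR adjusted p = 0.0244) and *H2-Ab1* (1.27 ± 0.28, edgeR adjusted p = 0.0379) passed, 3 of 8 members, beside 1.64% of 15327 genes. *H2-Eb1* had 1.02 ± 0.25 (edgeR adjusted p = 0.0699). The models also differ in strain, run, time of *Otx2* loss, injection and the tissues affected, and these cannot be told apart. The call rests on single libraries, since 0 members were called without vehicle 4V pool A, vehicle 4V pool B or wildtype pool A, 1 without Cre-Tat 4V pool A or *Otx2*+/- pool B, and 2 without wildtype pool B or *Otx2*+/- pool A. With counts summed over transcripts 1 was called.

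In *Otx2*+/AA 4V ChP, compared with the same wildtype pools, 1 of 7 members tested passed, and 0.345% of 14494 genes did. *H2-Eb1* had 28.5 and 21.7 CPM in wildtype and 48.0 and 41.9 CPM in *Otx2*+/AA pools, a rise of 0.84 ± 0.16 on the log2 scale (edgeR adjusted p = 0.0427). It was no longer called with counts summed over transcripts or with all constitutive groups in one fit, nor without wildtype pool B (0.66) or *Otx2*+/AA pool A (0.75). Another 4 members had unadjusted p under 0.05, with log2 differences of 0.38 for *Cd74*, 0.61 for *H2-Aa*, 0.48 for *H2-Ab1* and 0.77 for *H2-DMb1*, and edgeR adjusted p from 0.159 to 0.399. *H2-DMb1* had 5.91 and 4.64 CPM in *Otx2*+/AA pools, above both wildtype pools. *H2-DMa* had 3.57 and 6.04 CPM, on either side of the wildtype pools.

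The class II chains did not stand in the same ratio to the invariant chain in both models. *H2-Aa* over *Cd74* (a ratio of CPM) was 0.662 to 0.990 in the 8 conditional pools and 0.529 to 0.653 in the 6 constitutive pools, without overlap. *H2-Eb1* over *Cd74* was 0.809 to 0.983 in the conditional pools and 0.489 to 0.764 in the constitutive pools. *H2-Ab1* over *Cd74* overlapped between models, at 0.915 to 1.15 and 0.831 to 0.952. Among constitutive pools, *Otx2*+/AA pool A had the highest *H2-Eb1* ratio.

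*H2-Ea-ps* is the E alpha gene, annotated as a pseudogene because C57BL/6 mice carry a form that is not expressed, while DBA/2 mice express it. It had 0 counts in all 8 conditional pools. In the constitutive pools it had 157 and 122 counts in wildtype, 182 and 233 in *Otx2*+/- and 4 and 92 in *Otx2*+/AA, where pool A stood apart. *Otx2*+/AA pool A, with the lowest *H2-Ea-ps* level (0.188 CPM), is thus also the pool with the highest *H2-Eb1* over *Cd74* ratio (0.764). Across the constitutive pools *H2-DMb1* fell as *H2-Ea-ps* rose. They had 5.91 and 0.188 CPM in *Otx2*+/AA pool A, and 1.64 and 11.9 CPM in *Otx2*+/- pool B. A part of H2 haplotype in the *H2-Eb1* call and in the other class II differences of the constitutive model was not tested. *H2-Ea-ps* itself had a log2 difference of -1.64 ± 0.65 between *Otx2*+/AA and wildtype (edgeR adjusted p = 0.438).

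**Figure D3:**
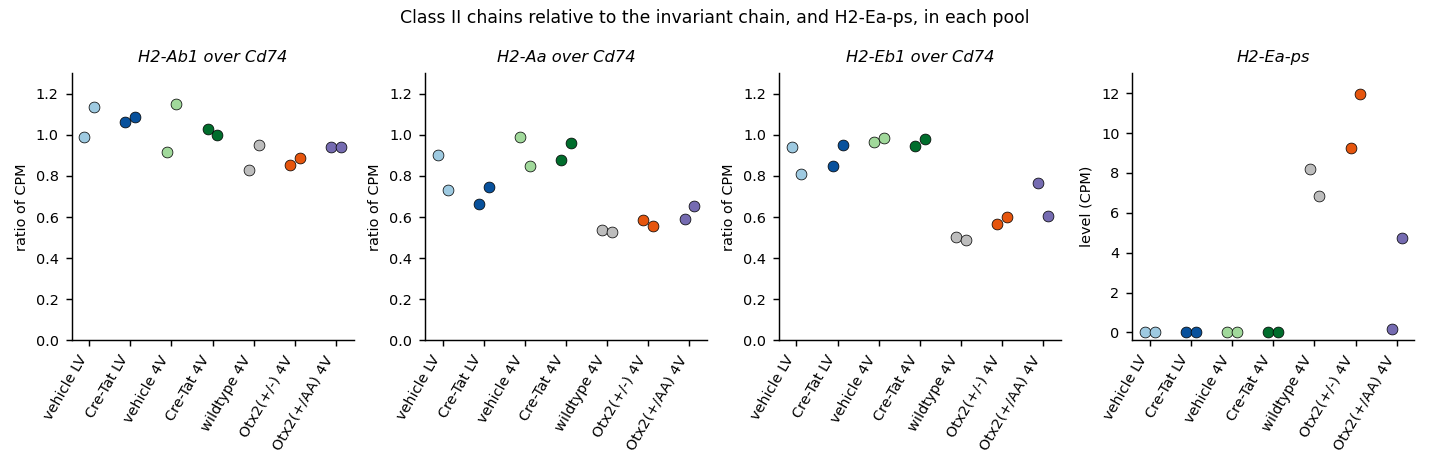
Ratio of the CPM of H2-Ab1, H2-Aa and H2-Eb1 to that of Cd74 in each pool (axes from 0), and the level of H2-Ea-ps (CPM). H2-Ea-ps is at 0 in all 8 conditional pools, and Otx2(+/AA) pool A combines the highest constitutive H2-Eb1 ratio, 0.764, with an H2-Ea-ps level of 0.188 CPM.

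The summed leukocyte markers, like the summed members, were higher in Cre-Tat than in vehicle pools of both ventricles. The summed level of 5 pan-leukocyte markers (*Ptprc*, *Cd52*, *Coro1a*, *Laptm5*, *Lcp1*) was 13.9 to 19.3 CPM in vehicle LV and 33.96 to 43.1 CPM in Cre-Tat LV. In 4V it was 9.78 to 12.5 CPM with vehicle and 26.4 to 33.2 CPM with Cre-Tat. In the constitutive model it was 19.9 to 21.5 CPM in wildtype, 24.2 to 26.7 CPM in *Otx2*+/- and 27.4 to 28.9 CPM in *Otx2*+/AA. The marker sums of *Otx2*+/- thus lay above wildtype, while the summed members overlapped, at 154 to 159 CPM in *Otx2*+/- and 142 to 172 CPM in wildtype. None of the 5 was at 0 in any group. In LV 3 of the 5 rose (*Lcp1*, an actin bundling protein, by 1.47, *Ptprc*, the CD45 phosphatase, by 1.36 and *Cd52* by 1.33), and in 4V all 5 rose, led by *Cd52* at 1.67, *Ptprc* at 1.60 and *Coro1a* at 1.41 on the log2 scale. DESeq2 called 2 of the 3 in LV and 1 of the 5 in 4V, *Ptprc*, and gave the other 4 adjusted p from 0.0845 to 0.116.

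The summed CPM of the 8 members divided by that of the 5 leukocyte markers was 10.9 and 11.9 in vehicle LV pools and 11.5 and 11.8 in Cre-Tat LV pools. In 4V the quotient was 12.7 and 11.5 with vehicle and 10.8 and 9.26 with Cre-Tat. It was 8.66 and 6.59 in wildtype, 6.57 and 5.79 in *Otx2*+/- and 7.54 and 8.54 in *Otx2*+/AA pools. Within LV the groups thus overlapped, and in 4V both Cre-Tat pools were below both vehicle pools. This quotient was chosen after the values were seen and is given without a test. In these bulk libraries, more leukocytes and more class II RNA in each cell cannot be told apart. According to the methods of the study, the injected mice, the *Otx2*+/- mice and their littermates were perfused with saline before the ChP was dissected.

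**Figure D4:**
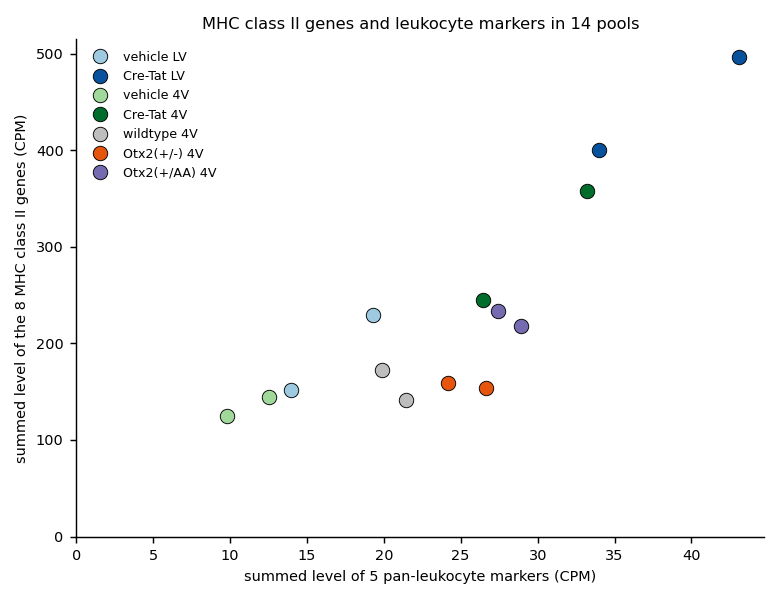
Summed CPM of the 8 MHC class II genes against the summed CPM of 5 pan-leukocyte markers in the 14 pools, with both axes from 0 and one colour a group. The 4 Cre-Tat pools hold 245 to 496 CPM of class II RNA at 26.4 to 43.1 CPM of leukocyte markers, and the 4 vehicle pools 124 to 229 CPM at 9.78 to 19.3 CPM.

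Macrophage markers rose in 3 of 14 tested in LV (*Adgre1*, which encodes F4/80, by 1.14, and the complement genes *C1qa* by 1.06 and *C1qb* by 0.94), with a median log2 fold change of 0.73. In 4V, 6 of 12 rose, led by *Aif1* at 1.25, *Adgre1* at 1.21 and *C1qa* at 0.84, with a median of 0.83, and DESeq2 called 4 of these 6, not *Aif1* (DESeq2 adjusted p = 0.27) or *C1qb* (0.0701). Their summed level was 84.6 to 95.1 CPM in vehicle LV, 137 to 146 CPM in Cre-Tat LV, 63.2 to 65.4 CPM in vehicle 4V and 91.9 to 125 CPM in Cre-Tat 4V, and 112 to 118 CPM in wildtype, 124.7 to 125 CPM in *Otx2*+/- and 129.5 to 148 CPM in *Otx2*+/AA. Members over macrophage markers was 1.795 and 2.41 in vehicle LV and 3.39 and 2.91 in Cre-Tat LV, and 1.90 and 2.28 against 2.87 and 2.66 in 4V, without overlap in either ventricle. None of the macrophage markers was at 0 in any group.

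Dendritic cell markers passed in 0 of 5 tested in LV by edgeR and by DESeq2, and 4 had an unadjusted p under 0.05. In 4V 2 of 3 tested rose by edgeR, *Cd209a* (2 counts over both vehicle pools and 55 over both Cre-Tat pools) and *Flt3*, a dendritic cell growth factor receptor (4 and 50 counts). Both passed the filter for low counts only through their Cre-Tat pools, so the 2 of 3 is in part set by the filter. The depth-scaled ratios were 17.4 (4.61 to 148) for *Cd209a* and 7.93 (2.91 to 30.2) for *Flt3*, with intervals for counting error only, and DESeq2 gave neither gene an adjusted p. The summed level of 7 dendritic cell markers was 8.72 to 8.81 CPM in vehicle LV, 9.55 to 15.0 in Cre-Tat LV, 6.07 to 6.25 in vehicle 4V and 10.2 to 10.9 in Cre-Tat 4V, with *Ccr7* at 0 in both vehicle groups. *Zbtb46*, which was not called, was the largest part of the group means. It averaged 7.09 CPM in vehicle LV, 6.75 in Cre-Tat LV, 5.54 in vehicle 4V and 6.14 in Cre-Tat 4V. Its log2 fold change in 4V was 0.16 (edgeR adjusted p = 0.775). T cell markers were called in 1 of 4 tested in LV (*Cd3g*, a T cell receptor subunit, by 3.27 ± 0.61) and 0 of 4 in 4V by edgeR and by DESeq2, where 3 had an unadjusted p under 0.05 and the median log2 fold change was 1.51. Their summed level was 2.52 to 2.57 CPM in vehicle LV, 7.32 to 11.4 in Cre-Tat LV, 1.91 to 2.39 in vehicle 4V and 4.79 to 7.99 in Cre-Tat 4V, with *Cd5* at 0 in both vehicle groups. *Cd3g*, at a mean of 0.197 CPM in vehicle LV, passed the filter for low counts in LV only through its Cre-Tat pools.

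No B cell marker had enough counts to be tested. The 7 markers summed to at most 0.403 CPM in a vehicle pool and to 0.599 to 1.70 CPM in the Cre-Tat pools of both ventricles. *Pax5*, which defines the B lineage, was at 0 in all 4 conditional groups, and it was the only marker at 0 in the Cre-Tat groups. In vehicle LV 4 of the 7 markers were at 0, and in vehicle 4V 6 were. *Ms4a1* had 0 counts in every vehicle pool, 14 and 1 in Cre-Tat LV and 6 and 4 in Cre-Tat 4V. The part of each of these cell types in the class II changes was not tested.

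Tissue identity markers fell on the epithelial side. Of 10 ChP epithelium markers, 4 fell and *Otx2* rose in LV, and 9 fell and *Otx2* rose in 4V. DESeq2 called these and another 3 in LV, *Prlr* (edgeR log2 fold change -0.79), *Ttr* (-0.66) and *Kl* (-0.63), and 9 of the 10 in 4V, without *Prlr*. Among the genes past edgeR's threshold the largest falls in LV were *Slc4a5*, a bicarbonate transporter (-0.72), and *Kcne2*, a potassium channel subunit (-0.67), and in 4V *Ttr*, the thyroxine carrier transthyretin (-1.18), and *Aqp1*, a water channel (-1.10). The epithelial sum was 8.7e+04 to 9.85e+04 CPM in Cre-Tat 4V, the lowest group, and no epithelial marker was at 0. *Otx2* counts over the whole transcript, which include reads outside the deleted part and so do not check the deletion, were higher in the pools labelled Cre-Tat and *Otx2*+/-, at 391 and 476 CPM in vehicle LV, 1245 and 1016 in Cre-Tat LV, 383 and 392 in vehicle 4V and 1195 and 1211 in Cre-Tat 4V. They were 362 and 303 CPM in wildtype, 1034 and 884 in *Otx2*+/- and 339 and 353 in *Otx2*+/AA, and counts of the deleted exon alone were not analysed here. Direction is drawn from the labels throughout. Endothelial markers passed in 0 of 6 in LV by edgeR and by DESeq2, with 0 at an unadjusted p under 0.05, and in 1 of 6 in 4V (*Plvap*, 0.70), which DESeq2 did not call. Of 5 astrocyte and neuron markers tested, 2 rose (*Snap25* 1.27, *Aqp4* 0.78) and 1 fell (*Aldh1l1* -0.69) in LV, and 2 rose (*Gfap* 0.87, *Aqp4* 0.84) and 2 fell, *Syt1* by 0.77 among them, in 4V, of which DESeq2 called 2 in each ventricle, without *Aqp4* in LV and *Gfap* and *Syt1* in 4V.

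Several genes outside the class II pathway that interferon gamma can induce also rose with Cre-Tat, and whether interferon gamma acted here was not tested. Of the GTPases and chemokines listed, 7 of 12 tested rose in LV and 5 of 11 in 4V, with median log2 fold changes of 1.20 and 0.87. None was called lower, and 11 lay above 0 in LV and 10 in 4V. *Iigp1*, an immunity-related GTPase, rose by 2.46 ± 0.33 in LV (edgeR adjusted p = 0.000855) and by 2.69 ± 0.33 in 4V (edgeR adjusted p = 3.67e-05). *Gbp4*, a guanylate-binding protein, rose by 1.85 and 2.49, *Gbp3* by 1.32 in LV and *Irgm1* by 1.02 in 4V.

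The RFX subunits (*Rfx5*, *Rfxap*, *Rfxank*) and NF-Y subunits (*Nfya*, *Nfyb*, *Nfyc*), which bind the X and Y boxes printed above, all had edgeR and DESeq2 adjusted p above the threshold in both ventricles, and 0 of them had an unadjusted p under 0.05 in edgeR's test. Their log2 fold changes ran from -0.23 (*Nfya*) to 0.12 (*Rfx5*) in LV and from -0.26 (*Rfxap*) to 0.29 (*Nfya*) in 4V. In the *Otx2*+/- comparison 1 of 13 of the GTPases and chemokines passed, *Tgtp1*, which fell by 1.70. In *Otx2*+/AA 0 of the 13 passed by edgeR or DESeq2, 0 had an unadjusted p under 0.05, and 10 lay above 0.

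The machinery that prepares peptide for class II moved in both directions. *Ctss*, the cathepsin that trims the invariant chain, rose by 0.92 ± 0.20 in LV and 1.00 ± 0.19 in 4V, and *Ifi30*, the lysosomal thiol reductase GILT, by 1.00 ± 0.17 and 0.85 ± 0.18. These were the 2 of 9 loading and processing genes that rose in each ventricle, and the list's medians were -0.23 and -0.26. In 4V 3 others fell, led by *Ctsd*, cathepsin D, at -0.66 ± 0.17, and in LV none did. In *Otx2*+/- 2 of 9 fell, *Ctsd* by 0.76 and *Ctsl* by 0.52, and in *Otx2*+/AA 0 passed by edgeR or DESeq2, with 3 at an unadjusted p under 0.05.

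Among other class II genes, *H2-Ob*, which pairs with *H2-Oa*, had 10 and 13 counts in vehicle LV and 41 and 27 in Cre-Tat LV, and 5 and 3 in vehicle 4V and 36 and 17 in Cre-Tat 4V. It rose in 4V by 2.07 ± 0.63 (edgeR adjusted p = 0.041, DESeq2 adjusted p = 0.208, so that DESeq2 did not call it), and in LV it had 1.36 ± 0.52 (edgeR adjusted p = 0.217). Both H2-O chains thus had more counts in every Cre-Tat pool than in any vehicle pool of the same ventricle. In 4V both chains passed the filter for low counts only through their Cre-Tat pools. *H2-DMb2*, a near-identical copy of *H2-DMb1*, had 0 to 25 counts a pool, so *H2-DMb1* took most reads counted for the pair, and how shared reads were divided is not given in the sources used here.

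Costimulatory genes passed in 0 of 5 tested in LV by edgeR and by DESeq2, with 3 at an unadjusted p under 0.05, and 1 of 5 in 4V, *Cd86*, by 1.40 ± 0.36, which DESeq2 did not call (DESeq2 adjusted p = 0.0943). All 5 lay above 0 in each ventricle. Of 11 MHC class I presentation genes 2 rose in LV, *Nlrc5*, the class I counterpart of *Ciita*, by 2.28 ± 0.35 and *H2-D1* by 1.00 ± 0.18. In 4V 3 rose, *Nlrc5* by 1.35 ± 0.32, *Psmb10* by 0.76 and *B2m* by 0.61, and 1 fell, and DESeq2 called 2 of these 4, not *Nlrc5* (DESeq2 adjusted p = 0.0692) or *Psmb10* (0.218). In the *Otx2*+/- and *Otx2*+/AA comparisons 0 costimulatory and 0 class I genes passed by edgeR or DESeq2, with 2 and 3 class I genes at an unadjusted p under 0.05.

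Genes whose pattern was most like that of the 4 abundant members (Pearson correlation of log2 CPM with their mean over 14 pools, which share groups, model and depth) were *Saa3* at 0.941, *Gpr18* at 0.937, *Ecm2* at 0.93 and *Cd4* at 0.918. *S100a4* and *Gm42674*, which overlap and have identical values, followed at 0.918, and then *Cxcl13* at 0.909, *Bcl11b* at 0.903, *Spn* at 0.902 and *BC023105* at 0.901. All but *Ecm2* and *Cxcl13* averaged under 4 CPM in every group, where counting error is large. Of the members outside the 4, *H2-Oa* had 0.88, *Ciita* 0.866, *H2-DMa* 0.663 and *H2-DMb1* 0.452. Over the 8 conditional pools alone *H2-DMb1* had 0.126 and *H2-DMa* 0.916, and of the 10 genes most like the mean there, 1 was shared with the first list (*Spn*).

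Some members overlap other genes, and the strand used in counting is not stated. *H2-DMa* (chr17:34119541-34139101, plus strand) shares exons with *Brd2* on the opposite strand, which had log2 fold changes of 0.12 in LV and 0.11 in 4V. *Ciita* (chr16:10480059-10528418, plus strand) shares exons with *Dexi* on the opposite strand, with 0.10 and 0.19. Neither neighbour passed. *H2-Oa* (chr17:34092340-34095234, plus strand) overlaps an antisense gene that was not analysed here, so its reads cannot be assigned to a strand. *H2-Aa* spans chr17:34282744-34287823 on the minus strand, and *H2-Ab1* (chr17:34257689-34269419), *H2-Eb1* (chr17:34305867-34316674) and *H2-DMb1* (chr17:34153072-34160230) lie on the plus strand. *Cd74* lies outside this cluster, at chr18:60803848-60812652 on the plus strand. Counts of each member were those of its most counted coding transcript, over its exons.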

How the data were processed

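RNA was extracted from pooled ChP. The labels describe ribosomal RNA depletion and strand-specific libraries, while the methods of the study describe PolyA+ selection. The authors deposited raw counts of reads per Ensembl transcript on mm10, and the submitters' processing notes name bcl2fastq 1.8.4, Bowtie 0.12.9, SAMtools, HTSeq 0.5.3 and DESeq 1.8.3. The strand setting is not given in the sources used here.

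Pool totals were 22750019 to 50088408 counts, which set counting error only. Both runs of a conditional pool were summed. Of the 16 conditional files, 14 are recorded with another pool than their library number gives. They were joined by number, since run pairs then differed by little more than sampling noise (chi-square over degrees of freedom 1.002 to 1.032, against 13.2 to 20.5 as recorded). Of 95533 transcripts, 82807 matched GENCODE vM21 (GRCm38), and the most counted transcript stood for each gene, which departs from the planned counts per gene.

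Each comparison used its own groups in edgeR 4.0.16 (R 4.3.3), with filterByExpr, TMM factors, the quasi-likelihood test and Benjamini-Hochberg adjustment over all genes, at 0.05. Standard errors were the fold change over the square root of F, and intervals are at 95%. The code was tested on simulated data. Alternatives were DESeq2 1.42.0, its size factors, total counts, other filters (none, mean count above 10), sums over transcripts, files as recorded, all groups of a run, a replicate block and each pool left out. Levels are CPM over 14 pools. All members were named. Of each list, genes past the threshold were named, or the 3 with the largest change where more passed, and correlations used a prior count of 2. The members and lists were chosen with earlier results of these data known. Promoter entries were matched for 5 of the 8 members. The remaining results of the lists of class II transcription factors and of interferon gamma receptor and signalling genes are not reported here.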

Additional observations from a re-analysis of the deposited data

Results flagged for a closer look

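For *Cd74*, *H2-Aa* and *H2-Ab1* the 4V change differed between models by the test of the difference itself. The Cre-Tat change exceeded the *Otx2*+/- change by 1.28 for *Cd74*, 1.17 for *H2-Aa* and 1.27 for *H2-Ab1* on the log2 scale (edgeR adjusted p = 0.0234, 0.0244 and 0.0379). In wildtype 4V pools *Cd74* stood at 56.6 and 44.5 CPM, and in vehicle 4V pools at 29.3 and 33.2 CPM, without overlap. Strain, run, injection and the time of *Otx2* loss differ with the model and cannot be told apart.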

How the results depend on the processing

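With the files as recorded, 4 members were called in LV, 5 between vehicle groups and 6 for the difference between ventricles. Under that setting the log2 fold changes turned in LV for *H2-DMa* (-0.27) and *H2-DMb1* (0.23), in 4V for *H2-DMb1* (0.73) and *Ciita* (-0.18), between vehicle groups for *H2-DMa* (0.65) and *Ciita* (-0.40), and for *Ciita* in the difference between models (-1.07). *Otx2*+/AA called 2 members with no filter and 0 with sums over transcripts or with all groups of the run in one fit. Between vehicle groups 2 were called with no filter, and the difference between models had 1 call with sums over transcripts. *H2-DMb1* in LV turned to 0.17 with total counts, and *H2-DMa* in *Otx2*+/- to 0.00012 with total counts and 0.024 with sums over transcripts. The causes were not tested. *H2-DMa* in 4V was called with total counts (adjusted p = 0.0151, edgeR) and no filter (adjusted p = 0.00839, edgeR).

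With the replicate block, *Otx2*+/AA called 3 members and the vehicle comparison 4, *H2-DMb1* in LV turned to 0.0053, *H2-DMa* in 4V was called (adjusted p = 0.00522, edgeR), and no other count of members called moved by over 1.5 times. Nothing in the labels ties pools of the same letter to a shared litter, batch or day, and 2 pools a group are too few for the data to show a pairing, so the letters were not used as one. Deviations of same-letter pools correlated by -0.128 in LV, 0.15 in 4V, 0.359 in *Otx2*+/-, 0.0771 in *Otx2*+/AA and 0.0744 between vehicle groups. A crossed replicate block in LV, chosen after the data were seen, called 7 members and 1012 genes (486 without a block), with *H2-DMb1* at 0.0029.

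With 1 pool left out, the lone pool is assumed to vary like the others. The number of members called was then 4 to 7 in LV, 4 to 7 in 4V, 0 in *Otx2*+/-, 0 to 2 in *Otx2*+/AA, 0 to 4 between vehicle groups, 0 for the difference between ventricles and 0 to 4 for that between models. Changes that turned had ranges of -0.18 to 0.18 for *H2-DMb1* in LV, -0.22 to 0.13 for *Cd74*, -0.13 to 0.24 for *H2-Aa* and -0.0026 to 0.39 for *H2-Eb1* in *Otx2*+/-, -0.61 to 0.16 for *H2-DMa* in *Otx2*+/AA, -0.38 to 0.13 for *H2-DMa* and -0.26 to 1.47 for *Ciita* between vehicle groups, and -1.28 to 2.69 for *H2-Oa* between models.

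Counts over all genes moved by over 1.5 times from 486 in LV (no filter 874, as recorded 6709), 1554 in 4V (replicate block 3114, as recorded 8742), 515 in *Otx2*+/- (replicate block 2539), 50 in *Otx2*+/AA (DESeq2 115, no filter 390, replicate block 549, sums over transcripts 22, all groups 18) and 1083 between vehicle groups (no filter 1840, replicate block 2288, as recorded 4718, all groups 717). For the difference between ventricles the count was 1 (DESeq2 6, no filter 31, mean count above 10 and sums over transcripts 0, replicate block 6, as recorded 5258), and between models 252 (no filter 627, replicate block 1048, sums over transcripts 166, as recorded 4688).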
